A study of Homo sapiens with 6 samples.

Results

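Ovarian carcinoma is recognised in the clinic and the laboratory by a small set of genes, and 10 of them were examined here in SK-OV3, a line grown from an ovarian carcinoma. They are the lineage transcription factors PAX8 and WT1, the mucins MUC16 and MUC1, the surface proteins MSLN, FOLR1, EPCAM, CD24 and CD44, and the secreted protein WFDC2. Members were taken by exact gene symbol from the deposited count table, which gave 10 of 59653 genes, and all 10 passed the filter on low counts described below. The rule uses symbols and no measured value, although the set was put together with earlier results of these data known.

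The cells were transfected for 48 h at 50 nM with a pool of siRNAs against the long non-coding RNA PVT1 (siPVT1, 3 libraries) or with a pool of scrambled siRNAs (siControl, 3 libraries). The sample labels give the genotype as wildtype and name no other allele or agent, while the study states that SK-OV3 lacks p53 expression. Transfection, siRNA dose and time are shared by both groups. All libraries are labelled as the same cell line, and nothing states that the 3 replicates of a group were separate cultures, so p-values measure the spread between these libraries, which may be technical. The comparison addresses how the transcriptome of these cells differs when PVT1 is lowered.

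PAX8 is a paired-box transcription factor of Müllerian epithelium, and WT1 is a zinc-finger transcription factor used beside it to type serous ovarian carcinoma. MUC16 carries the serum antigen CA125, and MSLN (mesothelin) is a lipid-anchored surface protein that binds it. WFDC2 encodes the serum marker HE4, FOLR1 encodes folate receptor alpha, and MUC1 and EPCAM are epithelial surface glycoproteins. CD24 is a small, heavily glycosylated surface protein, and CD44 is the main cell surface receptor for hyaluronan. SK-OV3 is widely used as an ovarian adenocarcinoma line and is usually described as having little MUC16.

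Total counts ranged from 28383171 to 32324829 in siControl and from 29564562 to 35059576 in siPVT1, and mitochondrial genes took 5.26 to 5.81% and 5.75 to 7.00% of them. Counts were scaled by TMM, which corrects for library composition, to the mean library size and are called normalized counts here. Of all genes, 19008 reached 5 normalized counts in 3 or more libraries and were tested with edgeR's quasi-likelihood test and Benjamini-Hochberg adjustment. A gene rose or fell when its adjusted p was under 0.05, and it passed both thresholds when its absolute log2 fold change was also at least 1. PVT1, the targeted RNA, fell from 3588 ± 437 to 2174 ± 154 normalized counts (SD, n = 3), a log2 fold change of -0.72 (SE 0.10, adjusted p = 0.000342). Replicates of siPVT1 differed more from each other than those of siControl: the chi-square per degree of freedom between 2 replicates was 8.62 to 45.3 and 1.75 to 5.67, respectively, so no pair agreed within sampling noise. CDKN2A, a cell cycle inhibitor gene that SK-OV3 is known to have lost by deletion, had 9 to 24 counts in 5 libraries. It had 0 in siPVT1 replicate 3. The source of the counts in those 5, and whether the label of the line holds for them, was not tested. In siPVT1 the library order of CDKN2A was that of MUC16. Whether RNA of other cells is present was not tested, and markers whose values rest on siPVT1 replicate 2 or 3 are also given without it.

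The promoters of PAX8 and WT1 are shown first, because these transcription factors moved in opposite directions after PVT1 knockdown. The windows are the 250 bases upstream of a start annotated by RefSeq (GRCh38.p14), that of the representative transcript where a gene has several, written 5′ to 3′ on the gene's strand, at chr2:113278922-113279171 (minus strand) for PAX8 and chr11:32435540-32435789 (minus strand) for WT1. Capitals mark matches to short motifs, searched on both strands. These were the GC box with the letters GGGCGG, the E box with CACGTG, the hypoxia response core with ACGTG, which every E box also holds, the TATA box with TATAAA, the CCAAT box and the TEAD factor motif with CATTCC.
PAX8: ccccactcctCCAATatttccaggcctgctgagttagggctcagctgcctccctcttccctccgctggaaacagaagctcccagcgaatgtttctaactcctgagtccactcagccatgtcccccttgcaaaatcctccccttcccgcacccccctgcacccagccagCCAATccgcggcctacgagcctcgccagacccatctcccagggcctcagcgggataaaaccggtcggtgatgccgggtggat
WT1: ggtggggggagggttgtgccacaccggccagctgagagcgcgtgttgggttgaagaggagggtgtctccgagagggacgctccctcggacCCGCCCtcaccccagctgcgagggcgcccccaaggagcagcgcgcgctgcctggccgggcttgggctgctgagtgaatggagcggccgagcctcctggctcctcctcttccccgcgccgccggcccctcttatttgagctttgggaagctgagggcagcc

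The PAX8 window had a GC content of 61.6% and held CCAAT at positions -240 and -82 from the start. The WT1 window had a GC content of 70.4% and held a GC box on the opposite strand at position -160. CCAAT was found in 32.0% and the GC box in 42.6% of 35116 promoter windows of the same length, so these matches describe the windows and set neither apart. The E box, hypoxia response core, TATA box and TEAD letters, in 6.35, 18.5, 10.7 and 11.9% of those windows, had no match in either. Another RefSeq start of WT1, inside the gene, had a window with a TEAD match at position -244 and a hypoxia response core at -25. Of the 10 genes, 7 had a promoter entry, while MSLN, FOLR1 and EPCAM had none.

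The 10 markers spanned a wide range of levels before any knockdown. Levels are compared between genes in CPM, the TMM-scaled count as a share of the library, per kilobase of the representative transcript, with lengths from GENCODE v44, and ranks are among 15808 tested genes with a matching annotation. CD44 stood at 442 ± 5.79 in siControl (SD, n = 3 libraries here and for each level below), and 99.3% of those genes were lower. PAX8 followed at 20.8 ± 0.19, above 80.6% of genes. CD24 at 7.99 ± 0.93 was the last marker above the median of all ranked genes, 5.35.

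WT1 stood at 3.88 ± 0.26 CPM per kilobase, above 43.7% of genes, and EPCAM at 2.01 ± 0.65, above 34.2%. WFDC2 at 0.855 ± 0.549, MSLN at 0.497 ± 0.118 and MUC16 at 0.324 ± 0.122 lay above 24.5, 19.3 and 15.4% of genes. FOLR1 at 0.212 ± 0.061 and MUC1 at 0.112 ± 0.052 closed the order, above 11.7 and 6.71%. The libraries of neighbours in this order did not overlap from CD44 down to EPCAM, but those of WFDC2 and MSLN overlapped, as did MSLN and MUC16, and MUC16 and FOLR1. The lowest EPCAM library (1.35) was just above the highest WFDC2 library (1.26), and the lowest FOLR1 library (0.160) just above the highest MUC1 library (0.152). MUC16 and CD24 had similar counts per library in siControl, yet the MUC16 transcript is 43816 bases and that of CD24 is 2156, so per length MUC16 was far lower. The order depends on the length used: with the union of a gene's exons, WT1 at 1.45 and EPCAM at 1.28 overlapped, and WFDC2 at 0.363 fell below MSLN at 0.422. Every siControl library held CDKN2A counts (13, 24 and 22), and whether these levels are those of SK-OV3 alone was not tested. In siPVT1 replicate 3, where CDKN2A had 0 counts and the siRNA also differed, MUC16 stood at 0.0131, WFDC2 at 0.479 and MSLN at 2.97.

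**Figure D1:**
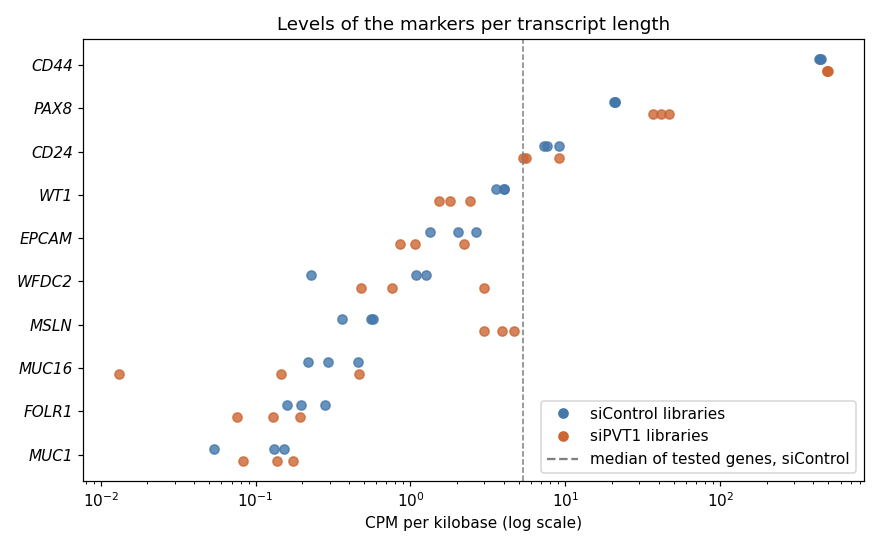
Each point is 1 library, with the level in CPM per kilobase on a log axis, siControl in blue and siPVT1 in orange, and the dashed line is the siControl median of tested genes. CD44 near 442 and PAX8 near 20.8 stood above the line in siControl, MSLN moved to the right in siPVT1, and the siPVT1 libraries of MUC16 were spread from 0.0131 to 0.465.

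After PVT1 knockdown, 3 of the 10 markers rose, 1 fell and 6 did not pass the test. MSLN, PAX8 and CD44 rose, against a background of 29.5% of all tested genes, and WT1 fell, against a background of 28.4%. Past both thresholds were MSLN upward, where the background was 11.8%, and WT1 downward, where it was 9.64%. The groups did not overlap for 4 of the 10 markers and for 65.6% of all tested genes. The median log2 fold change was -0.05 over the markers and 0.0014 over all tested genes. These counts of 10 genes were not tested against the background, and without siPVT1 replicate 2 the markers that fell were 3, against 25.4% of tested genes. In bulk RNA, fewer cells carrying a transcript and less of it per cell cannot be told apart.

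**Figure D2:**
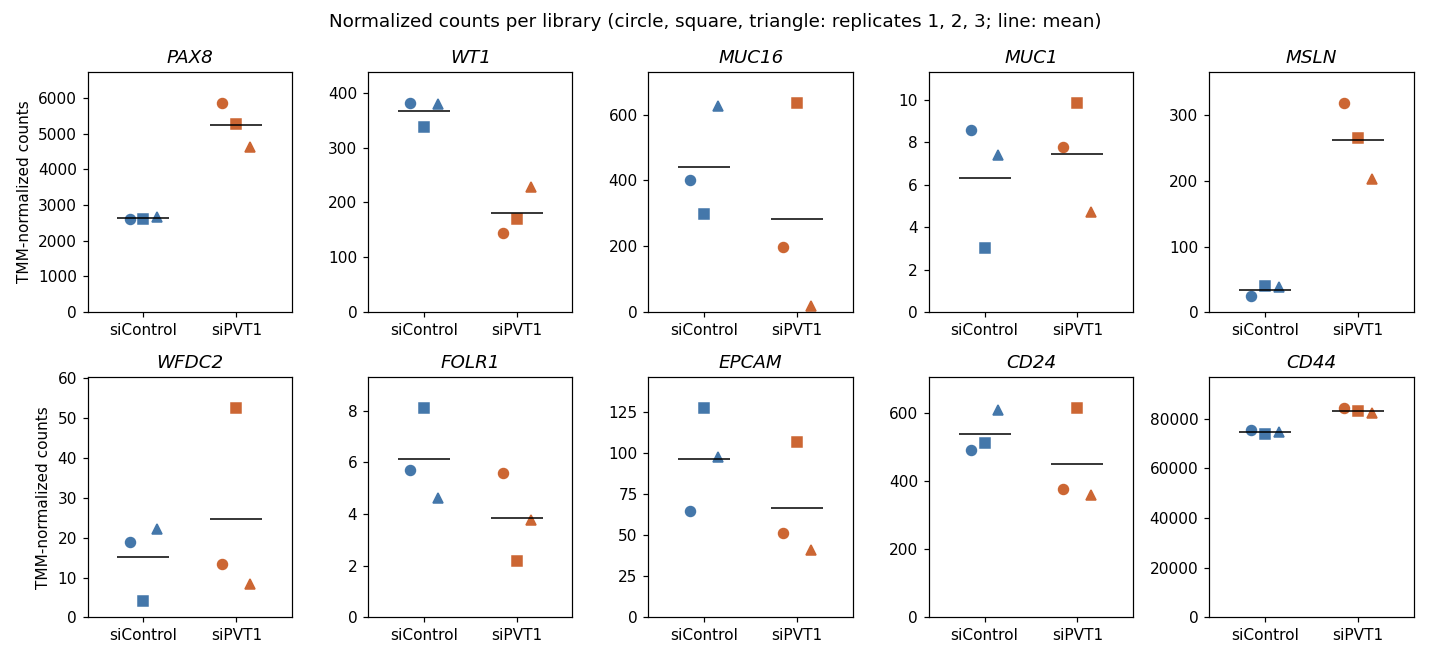
Each panel shows 1 marker with normalized counts from 0 on the vertical axis, the replicates of siControl in blue and of siPVT1 in orange, and a line at each mean. The groups are separate for PAX8, WT1, MSLN and CD44 and overlap in the other 6 panels, where siPVT1 replicate 2 (square) is often highest.

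The lineage factors went opposite ways. PAX8 (chr2:113215997-113278921, minus strand, GRCh38) had 2606, 2623 and 2653 normalized counts in siControl and 5855, 5269 and 4638 in siPVT1. Every siPVT1 library lay above every siControl library. The mean went from 2627 ± 23.6 to 5254 ± 609 (SD, n = 3), a log2 fold change of 0.9995 (SE 0.09, 95% interval 0.80 to 1.20, adjusted p = 3.33e-05), just under the fold threshold. Its level per length went from 20.8 ± 0.19 to 41.6 ± 4.82 CPM per kilobase.

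WT1 (chr11:32387775-32435564, minus strand) had 381, 337 and 380 normalized counts in siControl and 144, 169 and 228 in siPVT1. The groups did not overlap, and siPVT1 replicate 3 lay closest to the controls. The mean went from 366 ± 24.8 to 180 ± 43.4, a log2 fold change of -1.01 (SE 0.16, 95% interval -1.39 to -0.64, adjusted p = 0.000905), just past the fold threshold. PAX8 and WT1 lay close to that threshold on either side of it. Without siControl replicate 3 or siPVT1 replicate 3 PAX8 passed it (1.001 and 1.066), and without siControl replicate 1, siControl replicate 3 or siPVT1 replicate 1 WT1 missed it (-0.99, -0.99 and -0.89), as it did without siPVT1 replicate 2 (-0.98).

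Both factors have an antisense RNA whose exons overlap theirs, and the strand setting of the counting is not stated, so their reads cannot be fully told apart. PAX8-AS1 (chr2:113211421-113276581, plus strand) shares 1651 exonic bases with PAX8 and had 52.2 ± 2.89 normalized counts in siControl and 47.7 ± 12.8 in siPVT1 (log2 fold change -0.12, adjusted p = 0.673). WT1-AS (chr11:32435518-32500632, plus strand) shares 47 exonic bases with WT1, spans the printed WT1 window, and had 70.4 ± 13.2 and 77.7 ± 11.2 (log2 fold change 0.14, adjusted p = 0.580). Neither passed the test.

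MSLN had the largest change of the 10 markers. MSLN (chr16:760734-768865, plus strand) had 24.8, 39.4 and 37.9 normalized counts in siControl and 319, 266 and 203 in siPVT1. The lowest siPVT1 library was more than 5 times the highest siControl library. The mean went from 34.0 ± 8.05 to 262 ± 57.8, a 7.68-fold rise (log2 fold change 2.94, SE 0.23, 95% interval 2.41 to 3.47, adjusted p = 2.02e-05). Per length it went from 0.497 ± 0.118 to 3.84 ± 0.85, still under the siControl median of ranked genes.

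CD44, by far the most abundant of the markers, changed by little. CD44 (chr11:35138882-35232402, plus strand) had 75560, 73620 and 74770 normalized counts in siControl and 84060, 82870 and 82290 in siPVT1. The replicates of each group were tight and the groups did not overlap. The rise was 1.11-fold (log2 fold change 0.15, SE 0.05, 95% interval 0.04 to 0.27, adjusted p = 0.0295). It is about as large as the effect of scaling: with counts scaled by library totals, the median of all genes moved from 0.0014 to -0.15 and CD44 had a log2 fold change of 0.0046 (adjusted p = 0.935). The call was also lost without siControl replicate 1 (adjusted p = 0.0907), siControl replicate 3 (0.103) or siPVT1 replicate 2 (0.0939), with the replicate number as a block (0.0696) and with no filter on low counts (0.0875).

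**Figure D3:**
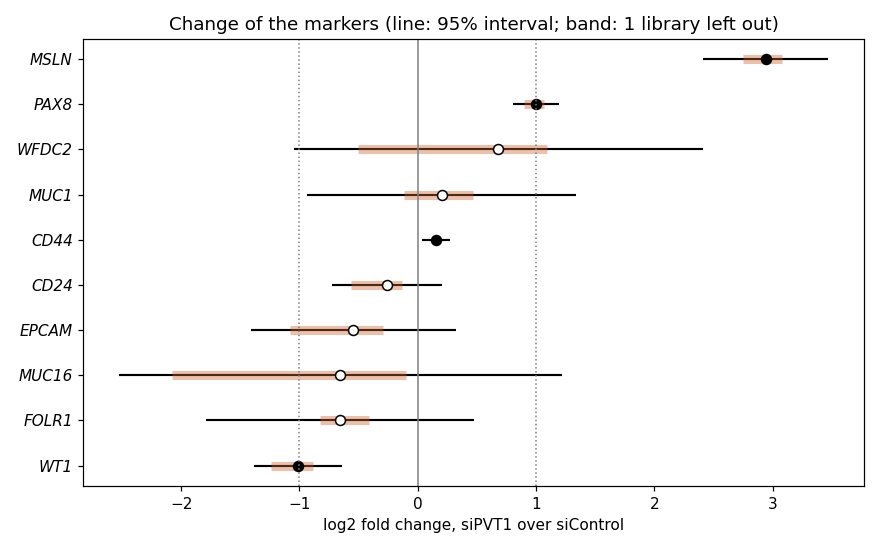
Points are log2 fold changes of siPVT1 over siControl, filled where the adjusted p was under 0.05, with black lines for 95% intervals and bands for the range when 1 library was left out, and dotted lines at -1 and 1. The intervals of MSLN (2.41 to 3.47), PAX8, WT1 and CD44 exclude 0, and that of MUC16 runs from -2.53 to 1.22. The band of FOLR1 covers only the removals of siControl replicate 3, siPVT1 replicate 2 and siPVT1 replicate 3. In the other removals it missed the filter on low counts.

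The other 6 markers did not pass the test, and the groups overlapped for each of them. MUC16 (chr19:8848844-9010390, minus strand) had 403, 299 and 625 normalized counts in siControl and 199, 635 and 17.9 in siPVT1. The siPVT1 libraries held both the highest and the lowest normalized count of the 6, a 35.6-fold range. The log2 fold change was -0.66 (SE 0.81, 95% interval -2.53 to 1.22, adjusted p = 0.522). Its coefficient of variation in siPVT1 was 112%, against a median of 10.2% for the 3819 tested genes within 2-fold of its mean, and 37.7% in siControl, where that median was 5.67%.

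WFDC2 (chr20:45469753-45481532, plus strand) had 19.1, 4.04 and 22.2 normalized counts in siControl and 13.4, 52.5 and 8.46 in siPVT1. As for MUC16, siPVT1 replicate 2 was the highest and replicate 3 the lowest of its group. The log2 fold change was 0.68 (SE 0.75, 95% interval -1.05 to 2.41, adjusted p = 0.467). EPCAM (chr2:47345158-47387601, plus strand) had 64.8, 127 and 97.9 normalized counts in siControl and 51.2, 107 and 41.3 in siPVT1, with the groups overlapping through siPVT1 replicate 2. Its log2 fold change was -0.54 (SE 0.38, 95% interval -1.41 to 0.33, adjusted p = 0.251).

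CD24 (chr6:106969831-106975627, minus strand) had 490, 511 and 607 normalized counts in siControl and 375, 612 and 357 in siPVT1. Here too only siPVT1 replicate 2 reached the control values. The log2 fold change was -0.26 (SE 0.20, 95% interval -0.73 to 0.20, adjusted p = 0.301). CD24 has processed copies elsewhere in the genome, so reads could be split among them, although the copy CD24P2 held at most 2 counts in any library.

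FOLR1 (chr11:72189558-72196323, plus strand) and MUC1 (chr1:155185824-155192916, minus strand) were close to the limit of detection. FOLR1 had 6, 8 and 5 counts in siControl and 5, 2 and 4 in siPVT1, and its log2 fold change of -0.66 had a 95% interval from -1.79 to 0.48 (adjusted p = 0.286). MUC1 had 9, 3 and 8 counts in siControl and 7, 9 and 5 in siPVT1, and its log2 fold change of 0.20 had a 95% interval from -0.93 to 1.34 (adjusted p = 0.751). At these depths a 2-fold fall of FOLR1 and a 2-fold rise of MUC1 lay within the intervals and were not detectable. The direction of MUC1 turned without siControl replicate 2 (-0.11) or siPVT1 replicate 2 (-0.06).

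Replicate 2 was the highest siPVT1 library for 5 of the 10 markers (MUC16, MUC1, WFDC2, EPCAM and CD24), while it was the highest for 20.2% of all tested genes. Without it, EPCAM had a log2 fold change of -1.08 (adjusted p = 0.0315) and CD24 of -0.57 (adjusted p = 0.00842), both past the test. MUC16 then had -2.08 (adjusted p = 0.0621), and WFDC2 turned to -0.50 (adjusted p = 0.557). Without siPVT1 replicate 3, by contrast, MUC16 had -0.10 (adjusted p = 0.846). The siPVT1 value of these 4 markers therefore depended on which libraries were counted. Leaving out the highest siPVT1 library lowers the siPVT1 mean by construction, so the values without replicate 2 show this dependence and no more.

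Other genes, some surface and lineage genes among them, had the same order of siPVT1 libraries as MUC16. The pattern was sought after the MUC16 values were seen: siPVT1 replicate 2 above replicate 1 above replicate 3, each step over 2-fold, with at least 30 normalized counts in the highest. It was met by 25 of 19008 tested genes (0.132%), MUC16 itself included, and each of the 5 other orders by 4 to 8 genes. Among the 25 were SLC34A2, a sodium-phosphate transporter, and CDH6 and CDH1, which are cadherins. The immune checkpoint ligand VTCN1, the homeobox gene EMX2 and the epithelial splicing factor ESRP1 were also among them. None of these 6 named genes passed the test of siPVT1 against siControl.

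CDH6 had 101, 102 and 157 normalized counts in siControl and 57.9, 153 and 5.64 in siPVT1. SLC34A2 had 58.1, 51.5 and 103 in siControl and 30.1, 113 and 1.88 in siPVT1. Although MUC16 itself spanned 35.6-fold over the 6 libraries, CDH6 stayed at 24.1 to 34.1% and SLC34A2 at 10.5 to 17.7% of the MUC16 count in every library. The other 4 genes, chosen like these for their order, varied more: EMX2 ran from 3.31 to 8.38% and ESRP1 from 5.34 to 21.1%, and CDH1 and VTCN1 were at 0 in siPVT1 replicate 3. Shares in that library rest on few counts: MUC16 had 19, CDH6 6, SLC34A2 2, ESRP1 4 and EMX2 1. Outside it ESRP1 ran from 5.34 to 9.69%. In siControl, MUC16, SLC34A2, CDH6, VTCN1 and EMX2 were highest in replicate 3, but CDH1 and ESRP1 in replicate 1. EPCAM ran from 15.7 to 232% of the MUC16 count, WFDC2 from 1.35 to 47.4% and CD24 from 96.4 to 2000%, a wider range than that of EMX2 or ESRP1. PAX8, WT1, MSLN and CD44 did not show this library order.

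CDKN2A and its neighbour MTAP, named after their values were seen, also varied by library. CDKN2A had 13, 24 and 22 counts in siControl and 9, 14 and 0 in siPVT1. MTAP had 27, 17 and 41 counts in siControl and 14, 35 and 0 in siPVT1. Both were, as MUC16 was, lower in siPVT1 replicate 3 than in any other library, with 0 counts there, and higher in replicate 2 than in replicate 1. In siControl, however, CDKN2A was highest in replicate 2, where MUC16 was lowest. MTAP there had the library order of MUC16. MTAP also met the siPVT1 pattern described above for MUC16. Its ratio to the MUC16 count was 0.057 to 0.078 in every library but siPVT1 replicate 3, where it was 0. The part of CDKN2A and MTAP in the MUC16 values was not tested.

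**Figure D4:**
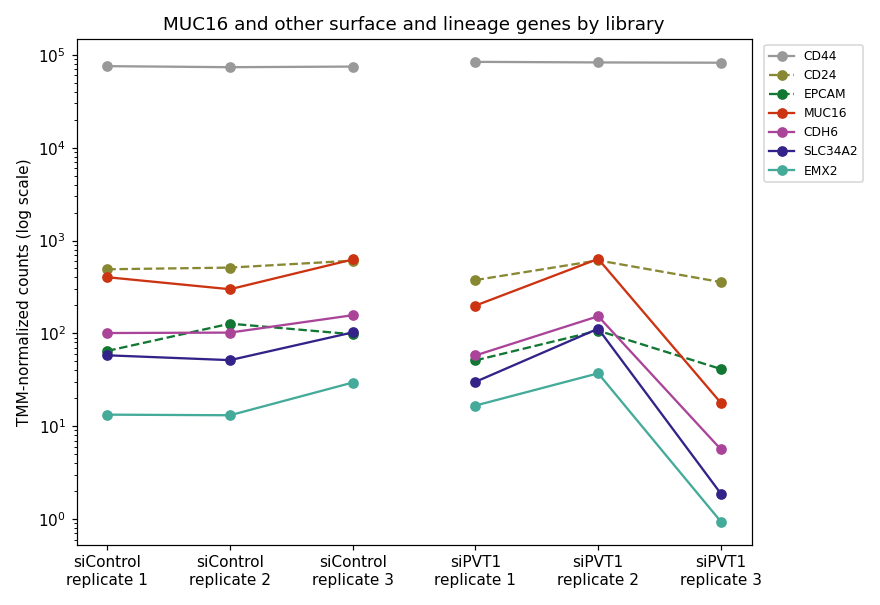
Normalized counts on a log axis are shown for 7 genes in the 6 libraries, and lines only join the points of a gene within a group, since replicates have no order. MUC16, CDH6, SLC34A2 and EMX2 have the same order in siPVT1 and are lowest in siPVT1 replicate 3, where MUC16 was 17.9, while CD44 is flat.

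Of the 16 other surface antigens of ovarian carcinoma, 7 rose, 3 fell and 6 did not pass the test. Of all tested genes, 29.5% rose and 28.4% fell. L1CAM, a neural adhesion molecule, had 231, 210 and 219 normalized counts in siControl and 1598, 1452 and 1126 in siPVT1 (log2 fold change 2.66, SE 0.14, adjusted p = 3.07e-06). The tight junction gene CLDN4 (1.64) and TPBG (1.45), which encodes the trophoblast glycoprotein 5T4, followed. CLDN6 (-1.69, at most 12.0 normalized counts), NECTIN4 (-1.17) and the receptor tyrosine kinase gene ERBB2 (-0.43) fell. CLDN6 passed the filter only through siControl, where it is high. The median over the 16 was -0.07, close to that of all genes.

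Of 16 further lineage transcription factors and hormone receptors, 10 were tested, of which 2 rose, 3 fell and 5 did not pass. The shares of all tested genes were 29.5% upward and 28.4% downward. SOX17, a factor of Müllerian epithelium like PAX8, went from 126 ± 10.3 to 269 ± 34.4 normalized counts (log2 fold change 1.09, SE 0.13, adjusted p = 0.000165). ESR2, estrogen receptor beta, rose from 2.53 ± 1.42 to 31.5 ± 11.6 (3.55, adjusted p = 0.000363), but it passed the filter only through siPVT1, where it is high, so its call and fold describe a gene near the limit of detection in siControl. HOXA10 (-0.78), GATA6 (-0.66) and MECOM (-0.65) fell. PAX2, a close relative of PAX8, had 0 counts in all 6 libraries.

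Of 12 mucins other than MUC16 and MUC1, 7 were tested, and 1 rose, 2 fell and 4 did not pass. Beside them, 29.5% of all tested genes rose and 28.4% fell. The gel-forming mucin gene MUC2 rose from 7.71 ± 3.45 to 23.5 ± 9.08 normalized counts (log2 fold change 1.58, adjusted p = 0.0161). It passed the filter only through siPVT1, where it is high. The membrane mucin MUC13 fell from 20.6 ± 3.56 to 4.92 ± 1.46 (-2.05, adjusted p = 0.00127). MUC17, another membrane mucin, had 25.7, 25.3 and 25.9 normalized counts in siControl and 0 counts in each siPVT1 library, which against a floor of 3 counts per library was at least 8.14-fold lower. MUC13 and MUC17 passed the filter only through siControl, where they are high.

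Of 12 enzymes that start and extend mucin-type O-glycans, 11 were tested, 9 rose, 0 fell and 2 did not pass, where 29.5% of all tested genes rose and 28.4% fell. GALNT12, which attaches the initiating sugar, went from 63.2 ± 4.01 to 428 ± 39.6 normalized counts (log2 fold change 2.76, SE 0.12, adjusted p = 1.44e-06). The sialyltransferase gene ST3GAL1 (1.07) and GALNT7 (0.81) followed. The median over the 11 was 0.52, against 0.0014 for all tested genes, and neither this nor any other list was tested as a group.

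Among 13 secreted ovarian carcinoma markers, 5 were tested, of which 3 rose and 1 fell, beside 29.5 and 28.4% of all tested genes. SPP1, which encodes the CD44 ligand osteopontin, was the most abundant of them and had 5935, 5512 and 5911 normalized counts in siControl and 833, 837 and 1040 in siPVT1. It fell by 2.68 on the log2 scale (SE 0.10, adjusted p = 7.92e-07). WFDC3 (1.97), a relative of WFDC2, the elastase inhibitor gene PI3 (1.87) and the lipocalin gene LCN2 (1.54) rose, each from under 12 normalized counts in every siControl library. Each passed the filter only through siPVT1, where it is high.

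Of 13 genes of hyaluronan metabolism and CD44 processing, 11 were tested, and 8 rose, 1 fell and 2 did not pass, beside the same 29.5 and 28.4% of all tested genes. The hyaluronan-binding TNFAIP6 (log2 fold change 1.97), the hyaluronan-degrading CEMIP (1.17) and ADAM10, a protease that sheds CD44, rose. TNFAIP6 had 6, 1 and 5 counts in siControl and 13, 17 and 14 in siPVT1. It passed the filter only through siPVT1, where it is high, so its call and fold describe a gene near the limit of detection in siControl. ADAM10 went from 7083 ± 368 to 12730 ± 632 normalized counts (0.85, SE 0.07, adjusted p = 1.94e-05). The hyaluronan synthase gene HAS2 decreased by 0.77 on the log2 scale (adjusted p = 0.0487).

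Among 8 EPCAM partners and proteases, 3 rose, 2 fell and 3 did not pass, where 29.5% of all tested genes rose and 28.4% fell. SPINT1, a protease inhibitor, went from 31.5 ± 5.43 to 166 ± 48.1 normalized counts (log2 fold change 2.39, adjusted p = 0.000113), and CLDN7, a claudin that binds EPCAM, from 28.3 ± 12.0 to 135 ± 32.6 (2.24, adjusted p = 0.000429). FHL2 (-0.59) and PSEN2 (-0.24) fell. Of 8 folate transport and use genes, 6 were tested. Of these 1 rose, 2 fell and 3 did not pass, where 29.5% of all tested genes rose and 28.4% fell. The 2 that fell were the transporters SLC46A1 (-0.65) and SLC19A1 (-0.51).

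**Figure D5:**
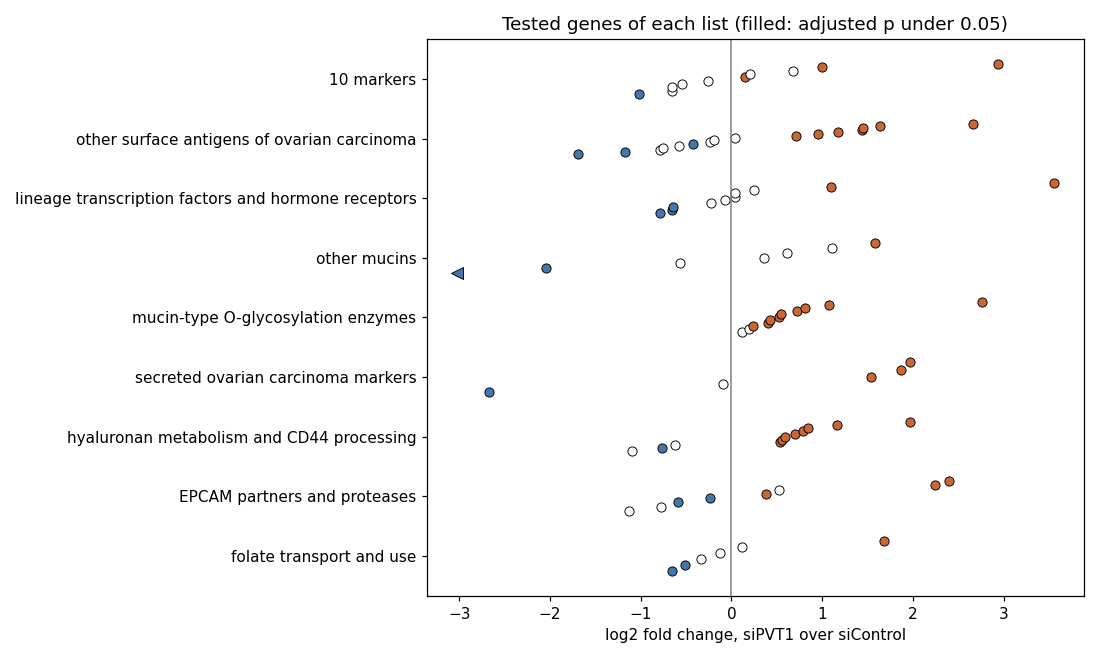
Each point is the log2 fold change of a tested gene, by list, in orange or blue where the gene rose or fell at an adjusted p under 0.05 and open otherwise, and the triangle is the upper limit for MUC17, which had 0 counts in siPVT1. Of the 11 O-glycosylation enzymes 9 are orange, and the 10 markers lie on both sides of 0 with a median of -0.05.

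Markers of cell types were read beside the label of the line, although they cannot tell SK-OV3 from another epithelial line. The epithelial keratins KRT7, KRT8 and KRT18 were abundant in every library, and the summed level of the 5 epithelial markers was 22570 to 25690 normalized counts in siControl and 27160 to 29500 in siPVT1. KRT19 (log2 fold change 2.30), KRT18 (0.37) and KRT8 (0.32) rose, KRT7 (-0.51) fell, and CDH1, at most 47.0 normalized counts, did not pass. Of 4 leukocyte markers, CD3E was at 0 throughout, PTPRC had at most 2 counts, and CD68 (0.30, adjusted p = 0.111) did not pass.

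MSLN is also a mesothelial gene, so mesothelial markers were read beside it. Of 4, ITLN1 and UPK3B stayed at or under 3 counts per library, LRRN4 had a log2 fold change of -0.0020 (adjusted p = 0.995) and CALB2 fell by 1.20 (adjusted p = 0.0249). Their summed level was 123 to 145 normalized counts in siControl and 58.3 to 111 in siPVT1, most of it from CALB2 in siControl. Their part in the MSLN values was not tested. The 3 endothelial markers all rose, where 29.5% of all tested genes rose. Their summed level was 2046 to 2072 in siControl and 8608 to 10880 in siPVT1. CDH5 led in level (from 1998 ± 7.09 to 9314 ± 1108) and PECAM1 in change (2.99). Of 4 fibroblast markers, COL1A1 (2.16) and PDGFRB (1.81) rose, LUM did not pass, and DCN had at most 1 count. The part of these endothelial and fibroblast markers in the rise of MSLN and PAX8 was not tested.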

How the data were processed

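RNA sequencing of SK-OV3 cells gave 6 libraries, 3 siControl and 3 siPVT1, grouped and numbered by the sample labels. The authors aligned reads with STAR 2.7.3a, quantified them with Salmon 0.14.1 (versions and GRCh38.p13 from the submitters' processing notes) and deposited estimated counts, 1 integer per symbol and library, without scaling. The strand setting is not given in the sources used here. The quasi-likelihood test of edgeR 4.0.16 in R 4.3.3 was applied to them after TMM scaling, with siRNA as the only term. Standard errors were derived from the log2 fold change and its F statistic, and intervals are 95%. An exact two-sided permutation test of 3 against 3 libraries cannot go below p = 0.1 and was not used for calls. The script was tested on simulated data.

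Levels per length used the Ensembl canonical transcript in GENCODE v44 (GRCh38), matched by symbol for 83.2% of tested genes. Sequences came from RefSeq. Alternatives were DESeq2 1.42.0, other scalings and filters, a block for the replicate number, a test against a 2-fold change, exon-union length and the removal of each library in turn.

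The genes named are the 10 markers, PVT1, antisense partners and, per list, at most 3 genes in each direction with the largest change past the test. The markers and lists were chosen with earlier results of these data known. Genes of the MUC16 pattern, CDKN2A and MTAP were named after their values were seen. The results for some other genes of the lists are not reported here.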

Additional observations from a re-analysis of the deposited data

How the results depend on the processing

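PAX8, WT1 and MSLN kept their direction and their adjusted p under 0.05 when the test, scaling, filter, block or any library was changed, except in the test against a 2-fold change, where 1 marker rose (from 3) and 0 fell (from 1). When 1 library was left out, 2 to 3 markers rose and 1 to 3 fell, with the 3 lower ones found without siPVT1 replicate 2. Past both thresholds, 1 to 2 rose (2 without siControl replicate 3 or siPVT1 replicate 3, which adds PAX8) and 0 to 1 fell (0 without siControl replicate 1, siControl replicate 3 or siPVT1 replicate 1). WT1 missed the fold threshold in those removals and without siPVT1 replicate 2 (-0.98), where EPCAM (-1.08) passed both instead. With 1 library left out, MUC1 ran from -0.11 to 0.46 and WFDC2 from -0.50 to 1.10 (log2). MUC1 turned to -0.11 without siControl replicate 2 and to -0.06 without siPVT1 replicate 2, and WFDC2 to -0.50 without siPVT1 replicate 2. CD44 lost its call with scaling by total counts (0.0046), with no filter (adjusted p = 0.0875), with the replicate number as a block (0.15, adjusted p = 0.0696) and without siControl replicate 1 (adjusted p = 0.0907), siControl replicate 3 (0.103) or siPVT1 replicate 2 (0.0939), and the cause was not tested. The block changed no other marker's call. Replicates with the same number did not deviate together (r = -0.06, 0.09 and 0.03 over 19008 genes), and not every sample correlated best with its own number. Scaling by totals moved the genes that rose from 29.5 to 23.6% and those that fell from 28.4 to 36.2%. With exon-union length, siControl levels in CPM per kilobase were 11.5 for PAX8, 1.45 for WT1, 0.123 for FOLR1, 0.363 for WFDC2, 1.28 for EPCAM, 5.56 for CD24 and 240.0 for CD44, and with total scaling PAX8 was 21.9 and CD44 465. Counts under about 10 limit FOLR1 and MUC1. FOLR1 missed the filter, and so was not tested, without siControl replicate 1, siControl replicate 2 or siPVT1 replicate 1. Neither FOLR1 nor MUC1 was tested with edgeR's own filter on low counts.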
